A study of Mus musculus with 20 samples.

Results

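The genes of the neuropeptides PACAP and VIP and of their receptors, 5 of the 19214 genes in the count tables, are described here across mouse libraries of the BNST, the bed nucleus of the stria terminalis, which lies in the forebrain and links the amygdala with the hypothalamus and brain stem. The members were taken by name and not by any measured value, though with earlier results of these data known. Each symbol matched 1 Ensembl identifier of the tables. Polyadenylated RNA was sequenced in 20 libraries, 5 in each of 4 groups. These were susceptible females and control females, and susceptible males and control males. Susceptible mice came from a chronic restraint stress (CRS) model of anxiety, in which an animal is repeatedly confined. The labels give no strain or age, and no rule by which mice were called susceptible. Whether each library stands for its own animal is not stated, so the spread behind the p-values may be partly technical.

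PACAP (pituitary adenylate cyclase-activating polypeptide, gene Adcyap1) and VIP (vasoactive intestinal peptide, gene Vip) are related peptides of the secretin family. They act on 3 G protein-coupled receptors that raise cyclic AMP: PAC1 (Adcyap1r1), which prefers PACAP, and VPAC1 (Vipr1) and VPAC2 (Vipr2), which bind both peptides. In the rat BNST, PACAP acting on PAC1 is known for its part in stress responses and anxiety-like behaviour, while in rodents VIP is best known from interneurons of the cortex and from the suprachiasmatic nucleus, the brain's master clock.

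On the GRCm38 (mm10) assembly all 5 genes lie on the plus strand and are annotated as protein-coding. Adcyap1 (ENSMUSG00000024256) spans chromosome 17, 93199017 to 93206537, and Vip (ENSMUSG00000019772) chromosome 10, 5639218 to 5647617. Adcyap1r1 (ENSMUSG00000029778) spans chromosome 6, 55451978 to 55501451. Vipr1 (ENSMUSG00000032528) spans chromosome 9, 121642716 to 121672954, and Vipr2 (ENSMUSG00000011171) chromosome 12, 116077726 to 116146261. No other annotated gene shares exon bases with any of them, and the antisense gene Gm20658 lies within Vipr2 without exonic overlap.

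The kinship of the peptides shows in the exons that encode them. The stretches that follow begin directly after a pair of codons for basic amino acids, Lys-Arg, in the GENCODE transcript of each gene, and run for 28 codons, the length of VIP and the first part of PACAP. Capitals mark bases that are the same in both, 62 of 84 (73.8%), and 19 of the 28 codons stand for the same amino acid. The Adcyap1 stretch lies in exon 5 of 5, chromosome 17, 93203990 to 93204073, and the Vip stretch in exon 5 of 7, chromosome 10, 5644024 to 5644107, both on the plus strand of GRCm38.
Adcyap1: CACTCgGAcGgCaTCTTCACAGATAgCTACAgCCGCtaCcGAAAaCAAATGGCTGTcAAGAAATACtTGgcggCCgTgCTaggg
Vip: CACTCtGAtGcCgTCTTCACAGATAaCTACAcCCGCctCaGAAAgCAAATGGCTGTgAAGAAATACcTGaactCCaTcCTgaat

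VIP and PACAP genes are textbook targets of cyclic AMP signalling, so the RefSeq promoter windows (GRCm38.p6, 250 bases before to 50 after the start) were searched on both strands for the cyclic AMP response element TGACGTCA, for its first 6 bases TGACGT and for its first 5 bases TGACG, each of which contains the next. The windows of all 5 genes were found. The 6-base motif, in capitals, stood at 1 place in each peptide gene (for Adcyap1 in the overlapping windows of both its starts) and in 0 of the 3 receptor genes, against 7.51% of 32851 windows in the whole table. The full 8-base element, present in 1.79% of windows, was in none of the 5 genes. The 5-base form, present in 20.8% of windows, was also in Vipr1. The Vip window is chr10:5638968-5639267 and that of the upstream Adcyap1 start chr17:93198767-93199066, both on the plus strand. The motif begins 79 bases before the start in Vip and 91 bases before it in Adcyap1. A match is only a match of letters.
Vip promoter: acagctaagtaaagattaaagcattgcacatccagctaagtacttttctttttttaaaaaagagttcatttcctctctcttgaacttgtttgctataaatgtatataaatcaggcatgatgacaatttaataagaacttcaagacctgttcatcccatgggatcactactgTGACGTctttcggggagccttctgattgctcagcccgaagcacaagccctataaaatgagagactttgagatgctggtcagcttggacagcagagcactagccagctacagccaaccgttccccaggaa
Adcyap1 promoter: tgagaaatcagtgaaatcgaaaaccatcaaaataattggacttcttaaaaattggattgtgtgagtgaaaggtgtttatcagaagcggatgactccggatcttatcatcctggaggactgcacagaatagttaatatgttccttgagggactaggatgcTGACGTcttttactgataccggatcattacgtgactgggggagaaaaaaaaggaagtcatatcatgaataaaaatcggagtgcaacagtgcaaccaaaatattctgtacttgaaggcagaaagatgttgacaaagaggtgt

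Library totals ran from 14637636 to 17862840 counts, and levels are given in CPM, which are counts scaled to library size and composition. A list of 14 marker genes of the BNST and of subpallial GABA neurons summed to 1782 to 2889 CPM per library, with no marker at 0 throughout any group. Since it covers subpallial GABA neurons in general, it cannot set the BNST apart from neighbouring subpallial tissue. A list of 9 striatal neuron genes summed to 323 to 4654 CPM per library. RNA of neighbouring structures differed strongly between libraries of 1 group. A list of 7 thalamic neuron genes, led by the glutamate transporter Slc17a6, was clearly higher in 7 libraries (mean log2 CPM 5.30 to 6.69) than in the other 13 (3.27 to 4.75). These 7 were susceptible females 3 and 4, control females 1, 2 and 3, susceptible male 5 and control male 1, and Slc17a6 stood at 173 to 454 CPM in them and at 13.8 to 112 CPM in the other libraries. Member results are therefore also given without these 7 libraries, a choice made after seeing the data.

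Compared per kilobase of exon, the PAC1 receptor gene Adcyap1r1 was by far the most abundant member, at 51.4 ± 5.51 CPM per kb (SD, n = 20). Its lowest library, 36.2 CPM per kb, exceeded the highest of any other member, 13.4 CPM per kb of Adcyap1. Below it came Adcyap1 at 3.42 ± 3.02, Vipr1 at 2.60 ± 1.55, Vip at 1.68 ± 1.06 and Vipr2 at 0.767 ± 0.683 CPM per kb (SD, n = 20 each), and neighbours in this order of the lower 4 differed by less than their spread. Adcyap1r1 thus made up 84.2% to 96.9% of the summed length-scaled level of the 3 receptor genes, with a median of 94.4%. The share was 84.2% to 96.7% in susceptible females and 90.8% to 95.8% in control females, and 94.3% to 96.9% in susceptible males and 91.2% to 93.8% in control males. The ranges of the male groups did not overlap, which was noticed after the values were seen and was not tested. In CPM, the male groups did not overlap for 2.44% of all tested genes, and no such figure was computed for receptor shares. The CPM of Adcyap1r1 itself overlapped between the male groups. Vipr1 took 1.58% to 5.31% of the sum in susceptible males and 3.63% to 8.39% in control males.

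**Figure D1:**
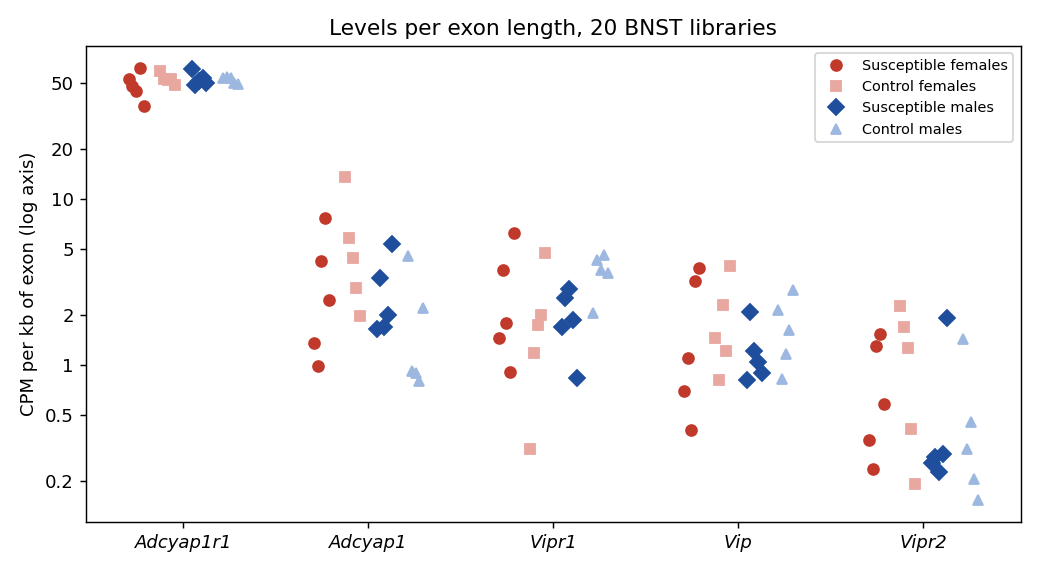
Level of each member in CPM per kb of exon (log axis) in the 20 libraries, 1 point per library, with susceptible and control females and then susceptible and control males from left to right within each gene. Adcyap1r1 lies between 36.2 and 61.6 CPM per kb in every library, above all points of the other 4 genes.

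The members also differed in steadiness. Adcyap1r1 had a within-group SD of 0.17 on the log2 CPM scale, against a median of 0.20 over all tested genes, and 39.2% of 14884 tested genes had a smaller one. For Adcyap1, Vip, Vipr1 and Vipr2 the within-group SD was 1.02, 0.91, 0.98 and 1.24, and 98.3%, 97.6%, 98.0% and 99.1% of tested genes had a smaller SD. Counting error alone would give 0.099, 0.15, 0.093 and 0.19 for these 4 genes, so most of their spread was between libraries and not from depth. The thinnest member, Vipr2, had 11 to 177 counts per library, and Adcyap1r1 had 3311 to 7304.

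**Figure D2:**
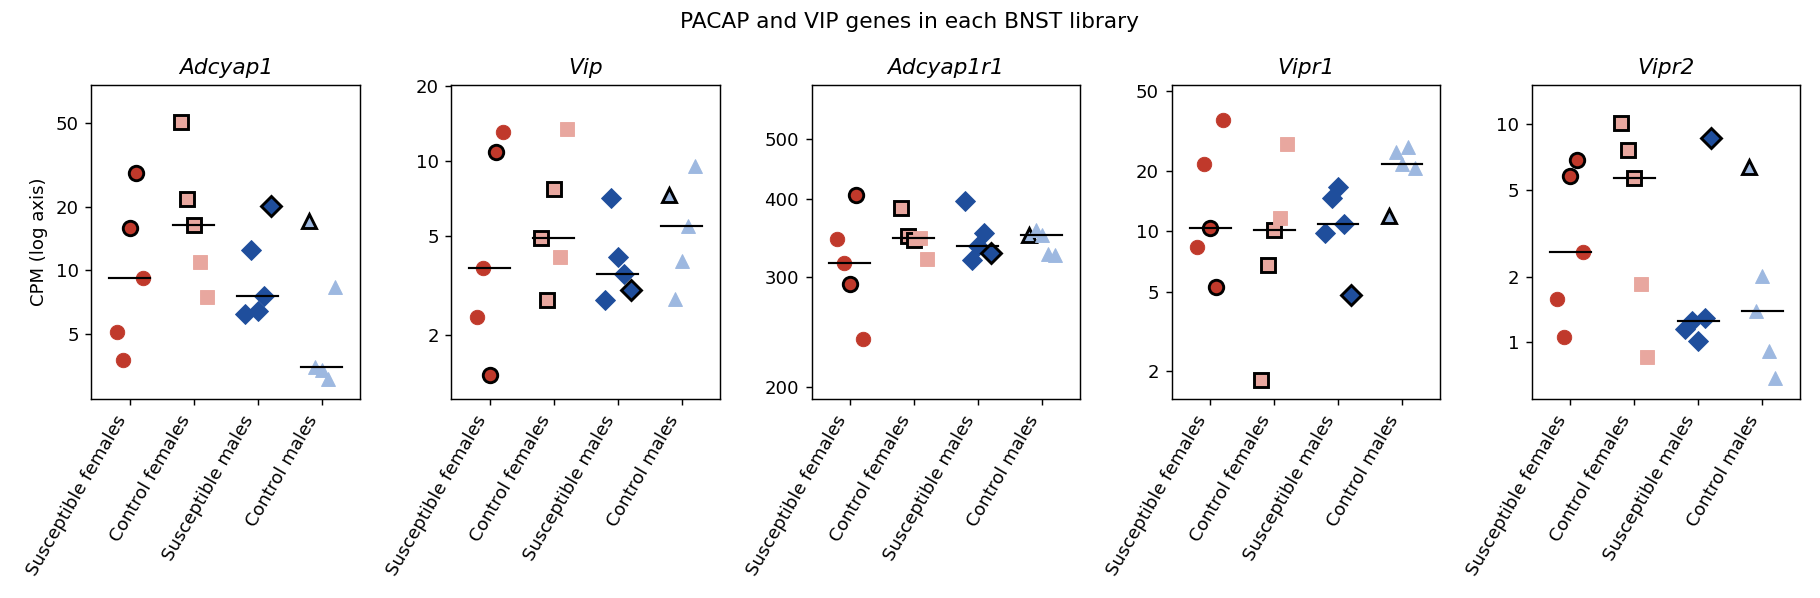
CPM of each member in every library (log axis, scaled separately for each gene), with susceptible and control females and then susceptible and control males; bars are medians, and black outlines mark the 7 libraries with the most RNA of thalamic genes. The outlined libraries hold the 7 highest values of Adcyap1 and of Vipr2, and groups overlap for all 5 genes.

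The effect of stress on the PACAP peptide gene was examined in each sex. Adcyap1 was 5.08, 3.73, 15.9, 28.9 and 9.23 CPM in susceptible females 1 to 5, against 50.8, 21.9, 16.5, 11 and 7.45 CPM in control females 1 to 5. Control female 1 was the highest of all libraries, and the female groups overlapped over most of their range. The female log2 fold change was -0.77 ± 0.61 (SE; approximate 95% interval -2.07 to 0.53; edgeR adjusted p = 0.79), and it was -0.17 without control female 1 and -1.34 without susceptible female 4. In males Adcyap1 was 6.21, 12.5, 6.38, 7.54 and 20.2 CPM in susceptible males 1 to 5, against 17.1, 3.46, 3.36, 3.04 and 8.29 CPM in control males 1 to 5. Most susceptible males stood above most control males, but control male 1 exceeded 4 of the 5 susceptible males. The male log2 fold change was 0.58 ± 0.64 (edgeR adjusted p = 0.79), and it was 0.21 without susceptible male 5 and 1.22 without control male 1. The 2 stress estimates had opposite signs, and their difference, females minus males, was -1.35 ± 0.88 (edgeR adjusted p = 0.617), so it did not exceed the spread between libraries. In tissue samples like these, fewer cells of a type and less RNA per cell cannot be told apart.

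The VIP gene showed no separation either. Vip was 2.38, 3.73, 1.38, 10.9 and 13.1 CPM in susceptible females 1 to 5, against 4.93, 2.77, 7.76, 4.13 and 13.5 CPM in control females 1 to 5. Each female group held both low and high libraries. Its log2 fold change was -0.073 ± 0.54 (edgeR adjusted p = 0.974), and the sign turned when any of 4 libraries was left out. In males Vip was 2.77, 7.11, 4.11, 3.52 and 3.03 CPM in susceptible males 1 to 5, against 7.32, 2.79, 3.96, 5.51 and 9.60 CPM in control males 1 to 5. Only susceptible male 2 stood above 5 CPM in its group, as 3 control males did. This gave a log2 fold change of -0.51 ± 0.55 (edgeR adjusted p = 0.789).

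Adcyap1r1 allowed the narrowest limits. It was 346, 316, 292, 407 and 239 CPM in susceptible females 1 to 5, against 388, 349, 344, 346 and 321 CPM in control females 1 to 5. Susceptible females spanned a wider range on both sides of the controls. Its log2 fold change was -0.13 ± 0.10, with an approximate 95% interval of -0.34 to 0.09 (edgeR adjusted p = 0.791). In males it was 397, 320, 337, 352 and 328 CPM in susceptible males 1 to 5, against 350, 356, 350, 327 and 326 CPM in control males 1 to 5. The male groups lay on top of each other, with a log2 fold change of 0.021 ± 0.10 and an approximate 95% interval of -0.20 to 0.24 (edgeR adjusted p = 0.961).

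The VPAC1 gene Vipr1 had the smallest stress p-value of the members. It was 9.86, 14.7, 16.7, 10.9 and 4.81 CPM in susceptible males 1 to 5, against 11.9, 24.8, 21.6, 26.4 and 20.7 CPM in control males 1 to 5. All control males except control male 1 exceeded every susceptible male. Its male log2 fold change was -0.89 ± 0.55, with an approximate 95% interval of -2.05 to 0.27 (edgeR adjusted p = 0.622). Among the males outside the 7 libraries rich in thalamic RNA, 4 in each group, Vipr1 was 9.86 to 16.7 CPM in susceptible males and 20.7 to 26.4 CPM in control males, without overlap, as were 9.94% of all tested genes in these 8 libraries. The log2 fold change there was -0.83 ± 0.35 (edgeR adjusted p = 0.438). Markers of neighbouring forebrain had estimates of the same sign in males. All 9 striatal neuron genes had negative estimates, with a median log2 fold change of -0.33 and a summed level of 999.9 to 3219 CPM in susceptible males and 1894 to 3721 CPM in control males. All 6 cortical excitatory genes were negative as well (median -1.67), summing to 27.9 to 223 CPM in susceptible males and 65.8 to 737 CPM in control males, and no marker of either list was at 0 throughout a group. The part of this RNA in the Vipr1 difference was not tested.

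In females Vipr1 had an estimate of the other sign. It was 8.38, 21.7, 10.4, 5.29 and 35.8 CPM in susceptible females 1 to 5, against 1.81, 6.80, 10.2, 11.6 and 27.3 CPM in control females 1 to 5. Both groups ran from low to high over a wide range. The log2 fold change was 0.50 ± 0.55 (edgeR adjusted p = 0.833), and it was -0.013 without susceptible female 5 and -0.033 without libraries holding over 1 CPM of the hypothalamic peptide gene Pmch. The difference of the stress estimates, females minus males, was 1.38 ± 0.77 (edgeR adjusted p = 0.594). All 9 striatal genes had positive estimates in females (median 0.90), while 2 of 6 cortical excitatory genes did (median -0.15). For the difference all 9 striatal genes (median 1.28) and all 6 cortical excitatory genes (median 1.54) were positive. The part of this RNA in the female estimate and the difference of Vipr1 was not tested.

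The VPAC2 gene Vipr2 divided the libraries into low and high ones. It was 1.58, 1.06, 5.78, 6.85 and 2.60 CPM in susceptible females 1 to 5, against 10.03, 7.55, 5.64, 1.84 and 0.862 CPM in control females 1 to 5. In males it was 1.15, 1.25, 1.01, 1.30 and 8.56 CPM in susceptible males 1 to 5, against 6.35, 1.40, 2.02, 0.918 and 0.686 CPM in control males 1 to 5. Each male group held 1 high library, and no library lay between 2.60 and 5.64 CPM. The log2 fold change was -0.53 ± 0.75 in females (edgeR adjusted p = 0.868) and 0.22 ± 0.79 in males (edgeR adjusted p = 0.945). Without the 7 libraries rich in thalamic RNA it was 0.37 ± 0.49 in females and -0.071 ± 0.39 in males. Both signs turned, but each estimate was within 1 standard error of 0. The 7 were also the 7 libraries highest in Vipr2, so leaving them out removed all its high values. It left 3 susceptible and 2 control females.

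Across these comparisons 0 of 5 members passed at an adjusted p under 0.05. In females the edgeR test called 0.0% of 14884 genes, and 0 members stood at an unadjusted p under 0.05, where 5.85% of all genes did. In males edgeR called 0.0% of genes, 0 members stood under an unadjusted 0.05, where 9.67% of all genes did, while quality-weighted limma voom called 4.59% of genes but 0 members. DESeq2 called 0.161% of genes in males, but its own filter gave an adjusted p to only 1 of the 5 members, Adcyap1r1 (0.925), so it could not call the other 4. For the difference between the sexes edgeR called 0.0% of genes, with 0 members under an unadjusted 0.05 against 8.26% of all genes. For the mean stress effect edgeR called 0.0% of genes, with 0 members under an unadjusted 0.05 against 7.71%. DESeq2 called 0.195% of genes for the mean, again with an adjusted p for Adcyap1r1 only (0.902). The estimates of all 5 members for that mean were negative, from -0.29 ± 0.38 for Vip to -0.053 ± 0.072 for Adcyap1r1, each within 1 standard error of 0. Groups that did not overlap were found for 0 members, against 0.457% of tested genes in females and 2.44% in males.

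**Figure D3:**
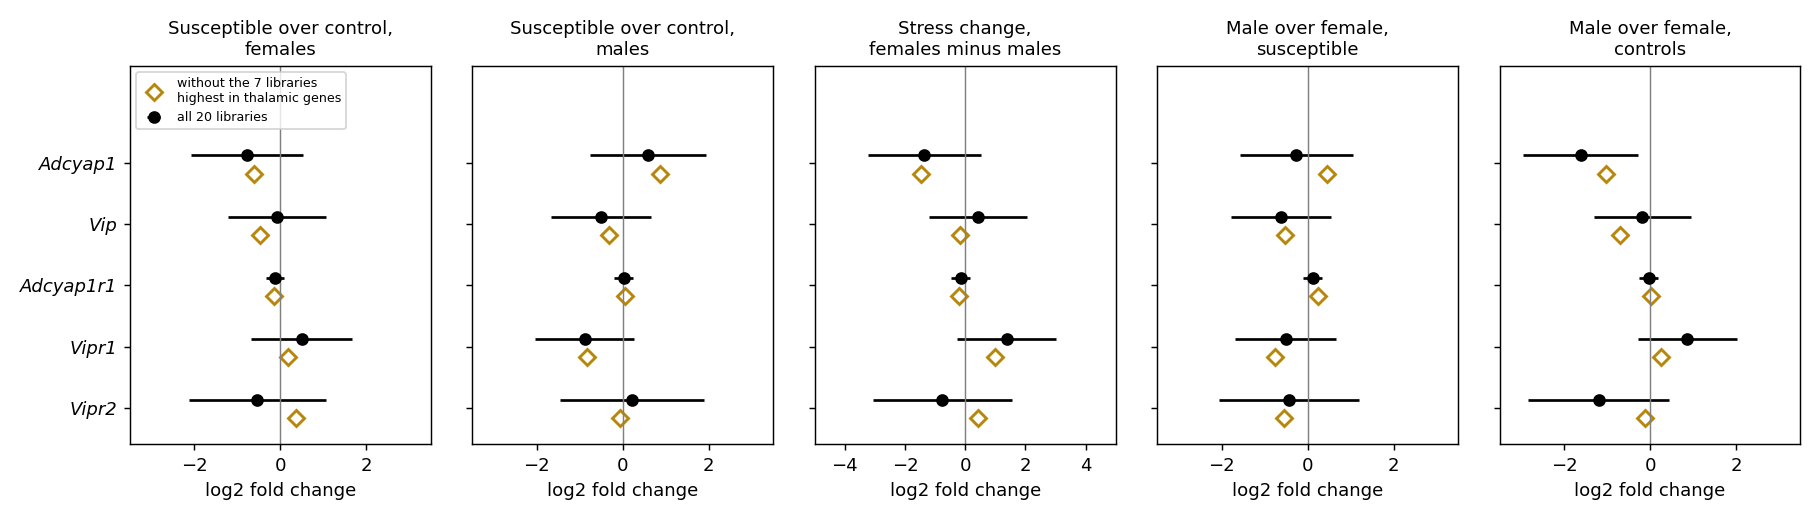
Log2 fold changes of the 5 members (rows) in 5 comparisons (panels). Black points are estimates from all 20 libraries with approximate 95% intervals, and gold diamonds are estimates without the 7 libraries highest in thalamic genes. The interval leaves out 0 only for Adcyap1 in control males over control females, and the diamonds of Vipr2 lie on the other side of 0 in both stress comparisons.

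Males were also set against females within each treatment. In controls Adcyap1 averaged 7.05 ± 6.02 CPM in males and 21.5 ± 17.3 CPM in females (SD, n = 5 each), a log2 fold change of -1.61 ± 0.63 (edgeR adjusted p = 0.193). Of the control males 4 lay at or under 8.29 CPM, as did 1 of the control females, and the groups overlapped. Groups without overlap were found for 0 members, against 3.89% of tested genes. Adcyap1 was the only member under an unadjusted p of 0.05 in this comparison, where 19.2% of all genes were and edgeR called 0.511%. Limma voom with quality weights called Adcyap1 (-2.04, adjusted p = 0.0135) and Vipr1 (1.45, adjusted p = 0.0212), in a fit that called 22.1% of all genes, and DESeq2 called 3.06% of genes but 0 members. Of the 7 libraries rich in thalamic RNA 1 was a control male and 3 were control females. Without the 7, the estimate was -1.03 ± 0.43 for Adcyap1 and 0.26 ± 0.43 for Vipr1 (edgeR adjusted p = 0.696 and 0.927, with 2 control females left). Without the libraries holding over 1 CPM of Pmch the estimates were -0.39 for Adcyap1 and 0.10 for Vipr1 (edgeR adjusted p = 0.973 and 0.99). Leaving out single libraries gave -2.25 (without control male 1) to -1.01 (without control female 1) for Adcyap1 and 0.59 (without control female 1) to 1.47 (without control female 5) for Vipr1. Vipr2 stood at -1.19 ± 0.77 in this comparison with all libraries and at -0.12 ± 0.47 without the 7. Marker lists pointed the same way as Adcyap1, with 6 of 7 thalamic genes (median -1.57) and 9 of 10 hypothalamic genes (median -1.70) negative in control males over control females. All 9 striatal genes were positive (median 0.997). All 8 oligodendrocyte genes were negative (median -0.64, 1 passed the edgeR test), summing to 3691 to 6865 CPM in control males and 5951 to 10100 CPM in control females, and all 6 endothelial genes were positive (median 0.70, 3 passed), summing to 148 to 278 CPM in control males and 140 to 163 CPM in control females. The part of these tissues and cell types in the member estimates was not tested. In susceptible mice 0 members differed between males and females, where edgeR called 0.047% of all genes and 6.28% were under an unadjusted p of 0.05. DESeq2 called 0.101% of genes there and limma voom 0.0672%, with 0 members, and groups without overlap, 0.779% of genes, held 0 members. The largest estimate was that of Vip, at 4.11 ± 1.76 CPM in males and 6.29 ± 5.31 CPM in females (SD, n = 5 each; log2 fold change -0.61 ± 0.55; edgeR adjusted p = 0.868).

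The same 7 libraries stood toward 1 end of the order for 3 members. The 7 libraries with the most RNA of thalamic genes were also the 7 highest for Adcyap1, at 15.9 to 50.8 CPM in them and 3.04 to 12.5 CPM in the other 13. They were the 7 highest for Vipr2 too, at 5.64 to 10.03 CPM in them and 0.686 to 2.60 CPM in the other 13. Neither range overlapped. Vipr1 ran the other way, at 1.81 to 11.9 CPM in the 7 and 8.38 to 35.8 CPM in the others, with 5 of its 7 lowest libraries among them. Vip and Adcyap1r1 each had 3 of the 7 among their 7 highest, with 1.38 to 10.9 CPM of Vip in the 7 and 2.38 to 13.5 CPM in the others. The libraries form separate clusters for the thalamic, hypothalamic, suprachiasmatic and choroid plexus lists and for Vipr2, so no correlation over all libraries is given for them. Within the 13 lower and the 7 higher libraries of the thalamic list, Pearson's r with that list was 0.21 and 0.064 for Adcyap1 and 0.18 and 0.35 for Vipr2. It was -0.56 and -0.92 for Vip, -0.69 and -0.27 for Vipr1, and 0.62 and -0.60 for Adcyap1r1. These values within sets of libraries were not tested. The hypothalamic list was parted into 14 lower and 6 higher libraries. Within these, r with that list was 0.525 and 0.968 for Adcyap1 and 0.035 and 0.769 for Vipr2. For Vipr1 it was -0.672 and -0.946.

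Hypothalamic RNA was high in most of the same libraries. Pmch, the melanin-concentrating hormone gene of the lateral hypothalamus, was 0.241 to 118 CPM in the 7, with a median of 11.2 CPM, and 0.057 to 0.789 CPM in the other 13. Control female 1, which had the most Pmch, also had the highest Adcyap1 and Vipr2 and the lowest Vipr1. In the female stress comparison 6 of 7 thalamic genes had negative estimates (median log2 fold change -0.48), and so had 8 of 10 hypothalamic genes (median -1.02). Summed thalamic levels were 114 to 1102 CPM in susceptible females and 124 to 1055 CPM in control females, and hypothalamic levels 3.53 to 264 CPM in susceptible females and 7.51 to 371 CPM in control females. In the male comparison 6 of 7 thalamic genes were positive (median 0.72), summing to 177 to 989 CPM in susceptible males and 129 to 473 CPM in control males, and no thalamic or hypothalamic marker was at 0 throughout a group. Adcyap1 had the sign of the thalamic median in both sexes, and the part of this RNA in its estimates was not tested. Without the 7 libraries Adcyap1 stood at -0.62 ± 0.46 in females and 0.86 ± 0.37 in males (edgeR adjusted p = 1 and 0.438).

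**Figure D4:**
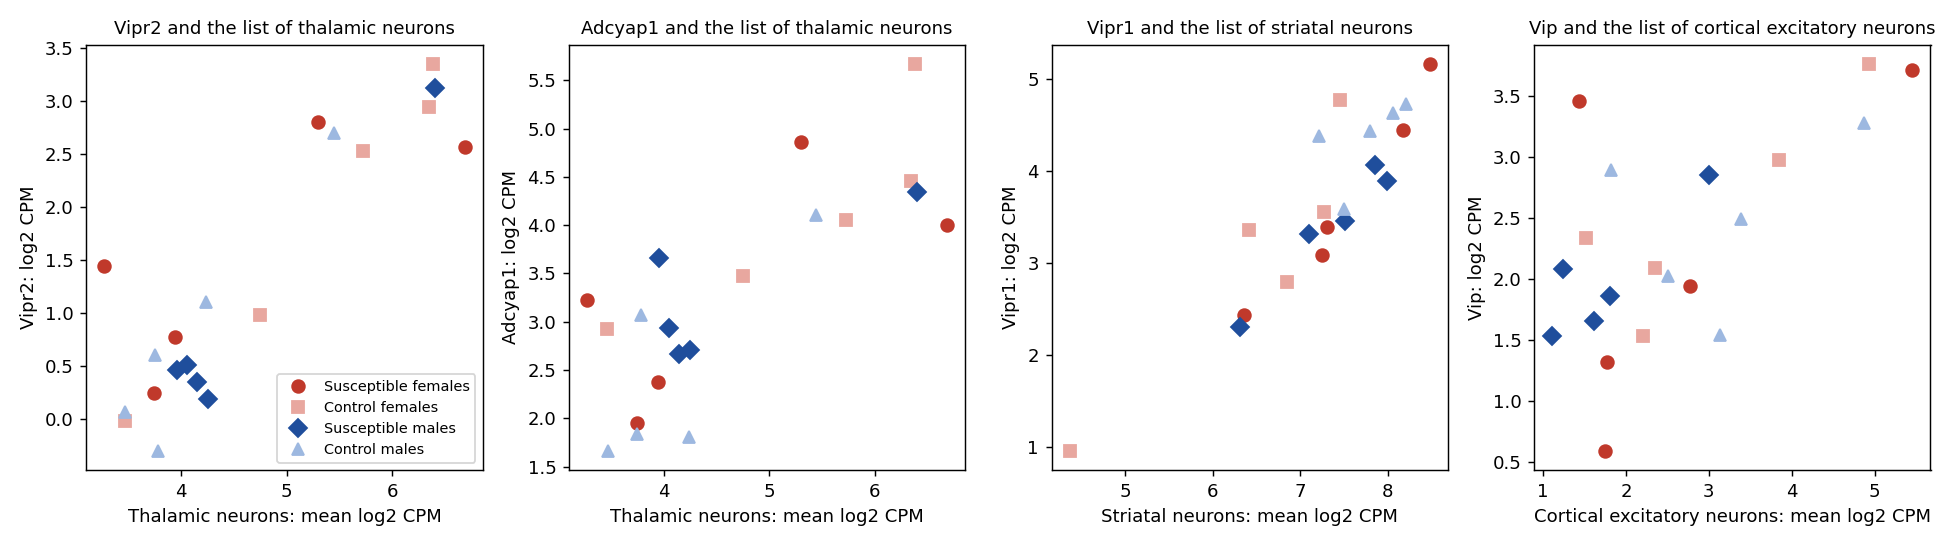
Log2 CPM of a member against the mean log2 CPM of a marker list in the 20 libraries, 1 point per library, coloured by group. Vipr2 and Adcyap1 are high in the 7 libraries above 5 on the thalamic axis, and Vipr1 climbs with the striatal list. The 2 libraries with most Vip have much cortical excitatory RNA, while the next, a susceptible female, has little.

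Correlations over the 20 libraries were computed for each member with 13 lists of regions and cell types, 65 relations in all. Vipr1 followed the striatal list, with Pearson's r = 0.91 and Spearman's rho = 0.86 (permutation p = 1e-05 each, the smallest that 100000 permutations can give; adjusted p = 9.29e-05 and 0.000217). The r was 0.82 without the 2 libraries farthest on the striatal axis and 0.93 after group means were taken out. Vipr1 was also related to the cortical excitatory list (r = 0.67, rho = 0.73; permutation p = 0.00153 and 0.00049, adjusted p = 0.00552 and 0.00227), with r = 0.55 without the 2 farthest libraries. Adcyap1 was inversely related to the striatal list (r = -0.78, rho = -0.68; permutation p = 4e-05 and 0.00161, adjusted p = 0.000289 and 0.00616), with r = -0.77 without the 2 farthest. Its strongest relation outside the clustered lists was with genes of cortical VIP-type interneurons, a list that does not hold Vip itself (r = 0.86, rho = 0.86; permutation p = 1e-05 each, adjusted p = 9.29e-05 and 0.000217), with r = 0.86 without the 2 farthest. The 7 libraries highest in this list were those rich in thalamic RNA, as for Adcyap1. Whether the list marks cortical interneurons in these libraries was not tested, and Vip itself had r = 0.033 with it. Within the 13 lower and these 7 libraries r was 0.62 and 0.14, so the relation over all libraries partly restates that split. Vipr1 ran against the list of cortical VIP-type interneurons (r = -0.68, rho = -0.63; permutation p = 0.00098 and 0.00372, adjusted p = 0.00375 and 0.0121; r = -0.69 without the 2 farthest). Its r was -0.171 within the 13 lower and -0.305 within the 7 higher libraries of that list. Vipr1 also ran against the oligodendrocyte list (r = -0.63, rho = -0.77; permutation p = 0.00344 and 0.00016, adjusted p = 0.0102 and 0.00116; r = -0.68 without the 2 farthest). After group means were taken out that r was -0.49. Adcyap1 rose with the oligodendrocyte list (r = 0.54, rho = 0.59, permutation p = 0.0132 and 0.00705, adjusted p = 0.0318 and 0.0218), with r = 0.63 without the 2 farthest. After group means were taken out the r of Adcyap1 with this list was 0.28.

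Vip was related to the cortical excitatory list (r = 0.64, rho = 0.51; permutation p = 0.00224 and 0.0219, adjusted p = 0.00728 and 0.0557), but r was 0.43 without the 2 farthest libraries, so the relation rests largely on them. The 2 libraries with most Vip, susceptible female 5 and control female 5, held 719 and 632 CPM of Slc17a7, which encodes a vesicular glutamate transporter of cortical neurons. With the list of cortical VIP-type interneurons Vip had no detectable relation (r = 0.033, rho = 0.12; permutation p = 0.888 and 0.625, adjusted p = 0.917 and 0.677; r = 0.051 without the 2 farthest). With the habenular list it had r = -0.58 and rho = -0.45 (permutation p = 0.00562 and 0.0463, adjusted p = 0.0159 and 0.104), but r was -0.36 without the 2 farthest. Vipr1 ran against the habenular list too (r = -0.585, rho = -0.814, permutation p = 0.00949 and 2e-05, adjusted p = 0.0247 and 0.000217), with r = -0.81 without the 2 farthest. Adcyap1 rose with that list (r = 0.545, rho = 0.656, permutation p = 0.0115 and 0.00207, adjusted p = 0.0288 and 0.00708), with r = 0.66 without the 2 farthest. Susceptible female 4 had 10.9 CPM of Vip with 17.1 CPM of Slc17a7, so the relation with cortical excitatory genes did not hold for every library. Adcyap1r1 was inversely related to the cortical excitatory list (r = -0.63, rho = -0.54; permutation p = 0.00261 and 0.0167, adjusted p = 0.00808 and 0.0452), but r was -0.39 without the 2 farthest libraries.

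Between members, 10 pairs were compared. Adcyap1 and Vipr1 were inversely related (r = -0.78, rho = -0.67; permutation p = 7e-05 and 0.00172, adjusted p = 0.00035 and 0.00597), with r = -0.63 without the 2 libraries farthest in Adcyap1. Within the 13 libraries low in Adcyap1 r was -0.245. Within the 7 high ones, which were those rich in thalamic RNA, r was -0.943. Adcyap1r1 and Vipr1 were inversely related with r = -0.58 and rho = -0.50 (permutation p = 0.0107 and 0.0257, adjusted p = 0.0268 and 0.0643). Adcyap1 and Vip, the peptide genes whose promoters carry the motif shown before, were not detectably related (r = 0.15, rho = 0.19; permutation p = 0.525 and 0.428, adjusted p = 0.583 and 0.508). The length-scaled ratio of Adcyap1 to Vip ran from 0.497 to 10.4 and exceeded 1 in 14 of 20 libraries. The ratio of Vipr1 to Vipr2 ran from 0.139 in control female 1 to 24.4 in control female 5 and exceeded 1 in 16 of 20.

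Genes with the most similar pattern were sought for each member among 13672 candidates with a mean of at least 1 CPM, by Pearson's r of log2 CPM over the 20 libraries. They are descriptions, since they were the highest of many. For Adcyap1 they were the synaptic organiser gene Cbln2 (r = 0.95), Coro2a (0.94), Cda (0.94), Car10 (0.91) and Nars (0.91). For Vipr2 they were Synpo2, the receptor-modifying gene Ramp3, Galnt17, Zmat4 and Cbln1, but the split into low and high libraries enters that choice. Within the 13 low libraries their r with Vipr2 was 0.41 to 0.60, and within the 7 high ones 0.36 to 0.58. For Vipr1 they were Tmem121b (r = 0.99), the muscarinic receptor gene Chrm1 (0.97), the potassium channel gene Kcnj4 (0.97), Zfyve28 (0.97) and Grasp (0.97). For Adcyap1r1 they were the huntingtin-associated protein gene Hap1 (r = 0.92), Fbxo10 (0.92), H13 (0.91), Megf6 (0.90) and Carmil3 (0.90), whose r was between 0.74 and 0.78 without the 2 farthest libraries. For Vip they included the growth factor gene Bmp3 (r = 0.85), Serpini1 (0.83), Sh3rf1 (0.80) and Col22a1 (0.79).

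The wider pathway was described by 3 lists. Of 35 genes of receptor signalling (G proteins, adenylyl cyclases, protein kinase A, CREB factors, phosphodiesterases and receptor-modifying proteins), 20 had positive and 15 negative estimates in females after stress, with a median log2 fold change of 0.009, against 0.006 over all genes. In males 16 were positive and 19 negative, with a median of -0.008, against -0.01 over all genes. The edgeR test called 0 of 35 in either sex, with 2 and 3 at an unadjusted p under 0.05. The smallest p-values in females were those of Atf1, a CREB-related factor, at 16.1 ± 1.19 CPM in susceptible and 13.6 ± 1.09 CPM in control females (log2 fold change 0.25 ± 0.08), and of the cyclase gene Adcy6 (-0.36 ± 0.14), both with an edgeR adjusted p of 0.774. In males they were those of the CREB coactivator gene Crtc2, at 33.6 ± 2.40 CPM in susceptible and 40.4 ± 5.15 CPM in control males (-0.27 ± 0.08; edgeR adjusted p = 0.405), and of Prkar1a, a regulatory subunit of protein kinase A, at 862 ± 12 CPM in susceptible and 760 ± 40.8 CPM in control males (0.18 ± 0.07; edgeR adjusted p = 0.434; SD, n = 5 each).

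Genes of peptide maturation and breakdown were split evenly, with 4 of 8 positive in females (median -0.004) and 4 of 8 in males (median -0.024), and edgeR called 0 in both. In females the 2 smallest p-values belonged to peptidases. Mme, neprilysin, was 32.3 ± 15.1 CPM in susceptible and 20.5 ± 5.11 CPM in control females (log2 fold change 0.65 ± 0.26), and Dpp4, a peptidase that trims PACAP, was 1.49 ± 0.612 CPM in susceptible and 2.39 ± 0.521 CPM in control females (-0.68 ± 0.33), both with an edgeR adjusted p of 0.774. In males the prohormone convertase gene Pcsk1 was 37.9 ± 4.33 CPM in susceptible and 30.2 ± 5.23 CPM in control mice (0.32 ± 0.17; edgeR adjusted p = 0.559), and Dpp4 again had the next smallest p (-0.45 ± 0.34; edgeR adjusted p = 0.696).

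Of 10 relatives of the secretin family, peptides and receptors other than the members, 5 were abundant enough to be tested. The whole list summed to 8.19 to 23.2 CPM per library, and Gip was at 0 in every library of 3 groups and Gcg in those of 2 groups. In females 2 of the 5 had positive estimates and in males 3, and edgeR called 0. Gipr, the receptor of the gut hormone GIP, was 4.69 ± 0.701 CPM in susceptible and 3.94 ± 1.14 CPM in control females (0.25 ± 0.18; edgeR adjusted p = 0.774), and 4.38 ± 0.830 CPM in susceptible and 5.31 ± 0.619 CPM in control males (-0.28 ± 0.18; edgeR adjusted p = 0.644). Ghrh, the growth hormone-releasing hormone gene of the hypothalamus, was 0.458 ± 0.530 CPM in susceptible and 0.736 ± 0.611 CPM in control females (-0.64 ± 0.69; edgeR adjusted p = 0.83). It was 0.600 ± 0.193 CPM in susceptible and 0.238 ± 0.177 CPM in control males (1.32 ± 0.78; edgeR adjusted p = 0.608).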

How the data were processed

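Per the labels' protocols, libraries were made from polyadenylated RNA and read as paired ends on an Illumina instrument. The authors deposited raw read counts per gene, 1 table per library, and the submitters' processing notes name HISAT2, featureCounts and the mm10 assembly, without their versions, the annotation or the strand setting, none of which is given in the sources used here. Groups and replicate numbers came from the sample titles. Of 19214 genes, 19206 matched GENCODE release M21 by identifier, which gave symbols, positions and exon lengths.

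After TMM scaling and the filterByExpr filter, 14884 genes remained, all 5 members among them. They were tested with the quasi-likelihood test of edgeR 4.0.16 (R 4.3.3, robust option), with a mean for each group in 1 model of all 20 libraries. P-values were adjusted over all genes tested (Benjamini-Hochberg, threshold 0.05). Fold changes are susceptible over control and male over female. Approximate 95% intervals are the estimate with its standard error times the t quantile at the residual degrees of freedom. Correlations used log2 CPM (prior count 2) and 2-sided permutation p-values, adjusted over the 65 or 10 relations, and libraries were held to form clusters where a gap over 0.5 left at least 6 on each side, a limit set after seeing the data. On simulated counts of 14884 genes, edgeR found 36% of the 1.5-fold and 79% of the 2-fold changes put into the female stress comparison, and 42% and 80% of those in the male one. These percentages were not computed for the members. Recovery at the spread of Adcyap1, Vip, Vipr1 and Vipr2 was not tested. Their within-group SD was 0.91 to 1.24 on the log2 CPM scale, against a median of 0.20 over all tested genes. Libraries of 1 group all differed by more than counting noise (chi-square per degree of freedom at least 5.98).

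Alternatives were DESeq2 1.42.0 (its size factors and its Wald test), limma 3.58.1 voom with quality weights, other count filters, a replicate block, a fit of the 2 groups compared, leaving out each library, leaving out libraries with Ttr above 100 CPM or with Pmch above 1 CPM, and the thalamic list as a covariate. Leaving out the 7 libraries highest in that list was added after seeing the data. The members, lists and most alternatives were chosen with earlier results of these data known. Named beyond the members were, by rule, the 2 genes with the smallest stress p-values of each pathway list, the 5 genes most alike to each member (1 of which is not reported here), and Ttr, Pmch, Slc17a6 and Slc17a7. Marker lists are given by counts and summed levels.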

Additional observations from a re-analysis of the deposited data

Results flagged for a closer look

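Of 20 sets of 5 libraries (5 members in 4 groups), 2 held a library far from the rest of its group in CPM. For normally distributed values chance alone gives such a gap in about 1 of 20 sets, and whether CPM meet that condition was not tested. Vipr2 was 8.56 CPM in susceptible male 5, where the nearest of the group had 1.30 CPM. Vipr2 was also far out in control male 1, with 6.35 CPM, where the nearest of that group had 2.02 CPM. On the log2 CPM scale control male 1 had 2.69, against 1.10 for the nearest and -0.30 for the lowest control male. Gaps were not tested on that scale. Both were among the 7 libraries highest in thalamic genes, and they were the only males among them.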

How the results depend on the processing

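No alternative that gave an adjusted p called a member in a stress comparison, and DESeq2 gave none for Adcyap1, Vip, Vipr1 and Vipr2 in males and for the mean stress effect. Limma voom with quality weights, which called 683 genes in males and 3294 between controls, was the only alternative that called a member (Adcyap1 at -2.04 and Vipr1 at 1.45 in control males over control females). DESeq2 called 24 genes in males, 29 for the mean stress effect, 15 in susceptible males over females and 455 between controls, against 0, 0, 7 and 76 in edgeR. Between controls edgeR called 38 genes with no filter on low counts, 19 with only the 2 groups compared, 17 with the thalamic list as covariate, 5 when libraries with Ttr above 100 CPM were left out, 5 when those with Pmch above 1 CPM were, and 4 without the 7 libraries highest in thalamic genes. Between susceptible mice it called 4 genes with only the 2 groups compared, 4 when libraries rich in Ttr were left out, 13 when those rich in Pmch were, and 11 without the 7. Leaving out 1 library at a time gave 6 to 458 genes between controls (458 without control female 5, 193 without control male 1 and 6 without control female 3), 6 to 20 between susceptible mice (20 without susceptible female 4) and 0 to 2 in females after stress (2 without susceptible female 4).

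The following estimates changed sign, all at adjusted p-values above the threshold, and the cause was not tested. With limma voom, Vipr2 was -0.26 in males after stress, Adcyap1 0.015 for the mean stress effect, Vip -0.41 for the difference between sexes and Vip 0.086 in susceptible males over females. Without libraries over 100 CPM of Ttr, Vip was 0.29 in females after stress, Adcyap1 -0.003 and Vipr2 -1.20 in males, and Vipr2 0.92 for the difference. Without libraries over 1 CPM of Pmch, Vipr1 was -0.033 and Vipr2 1.03 in females, Vipr2 -0.93 in males, Adcyap1 0.052 and Vipr2 0.049 for the mean, Vip -0.38 and Vipr2 1.97 for the difference, and Adcyap1r1 0.025 and Vipr2 0.74 between controls. With the thalamic list as covariate, Vipr2 was 0.46 in females, -0.41 in males, 0.026 for the mean, 0.86 for the difference and 0.14 between controls, Adcyap1 0.096 for the mean and Adcyap1r1 0.016 between controls. Without the 7 libraries, Vipr2 was 0.37 in females, -0.071 in males, 0.15 for the mean and 0.44 for the difference, Adcyap1 0.12 for the mean and 0.45 in susceptible males over females, Vip -0.16 for the difference and Adcyap1r1 0.022 between controls.

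Leaving out 1 library at a time, Adcyap1 ran from -1.34 to -0.17 in females after stress, from 0.21 to 1.22 in males, from -0.38 to 0.22 for the mean stress effect and from -0.63 to 0.31 in susceptible males over females. Adcyap1r1 ran from -0.031 to 0.049 in males after stress and from -0.068 to 0.008 between controls. Vip ran from -0.52 to 0.36 in females after stress, from -0.43 to 0.25 between controls and from -0.018 to 0.86 for the difference. Vipr1 ran from -0.013 to 1.10 in females and from -0.45 to 0.11 for the mean. Vipr2 ran from -0.94 to 1.08 in males (-0.94 without susceptible male 5 and 1.08 without control male 1), from -0.74 to 0.28 for the mean and from -1.62 to 0.41 for the difference.

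The labels share replicate numbers across groups but do not say that a number marks a shared origin, and same-numbered libraries deviated together with correlations from -0.44 to 0.64 between the female groups, 0.019 to 0.25 between the male groups, -0.39 to 0.20 between the susceptible groups and -0.13 to 0.50 between the control groups. Since not every pair was over 0.1, the numbers were not taken to pair them. With the replicate block edgeR called 0 genes in the 4 stress comparisons, 4 between susceptible mice and 110 between controls, and only Adcyap1 for the mean stress effect changed sign (0.10). Depth limits Vipr2 most, with as few as 11 counts in a library.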

Other observations

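The 4 members other than Vipr2 differed in how many other genes shared their pattern over the 20 libraries. Among the 13672 candidates, 714 had a Pearson's r above 0.8 with Vipr1, 131 with Adcyap1, 96 with Adcyap1r1 and 3 with Vip. These are counts across genes, which are not independent replicates.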
